A study of Homo sapiens with 4 samples.

Results

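The genes for the proteins of the cytosolic ribosome were followed across 12 cultures of human microglia-like cells. All genes whose symbol is RPL or RPS with a number, allowing the endings of the A, X, L and L1 forms, were taken with RPLP0, RPLP1, RPLP2 and RPSA. This rule named 84 of the 36601 genes in the count tables, 52 for the large subunit and 32 for the small one, and used no measured value. Of these, 82 passed the filter on low counts, and RPL3L and RPL10L, with 2 and 4 counts in all kept cells, did not. The label held at the level of abundance: 77 of the 84 genes were detected in at least 99% of the kept cells, and the other 7 were the paralog genes RPL22L1, RPL7L1, RPL26L1, RPS27L, RPL39L, RPL3L and RPL10L.

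The cells came from H9, a human embryonic stem cell line, so that every culture shares 1 genetic background. Precursors were collected at day 25 and matured for 7 days in a serum-free medium termed TIC. The cultures labelled Ctrl received the solvents DMSO and PBS. Those labelled Sema received 2 µM semagacestat, an inhibitor of gamma-secretase, for 22 h with PBS. The LPS cultures received DMSO, and 200 ng/mL of the bacterial cell wall component lipopolysaccharide for the last 6 h, and the SemaLPS cultures received both agents. Each condition had 3 cultures, and all cells were detached in the presence of 5 µM actinomycin D, a transcription inhibitor. Cells were marked with a hashtag antibody per culture, pooled, divided over 2 libraries and read by 3' single-cell RNA sequencing.

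Every cytosolic ribosome holds 1 copy of most of these proteins, and the 2 subunits need them in matched amounts. Many of the mRNAs begin with a cytosine followed by a run of pyrimidines, the 5' terminal oligopyrimidine tract, through which the mTORC1 kinase sets their translation. A few of the proteins have a paralog, a gene copy with its own promoter, and RPL22L1, RPL39L, RPS27L and RPL26L1 are such copies of RPL22, RPL39, RPS27 and RPL26.

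The start of these genes was read from the RefSeq promoter windows (build GRCh38.p14), which held an entry for 67 of the 84 genes. In 47 of the 67 genes (70.1%) an annotated start was a C followed by at least 4 further pyrimidines (C or T), against 5.14% of the 27305 genes in the same table. Among the 62 entries outside the paralogs 46 had such a start, and among the 5 paralog entries 1 had it. Genes whose run begins a few bases from the annotated start, such as RPL10A and RPL9, are not counted among the 47. The windows of 30 bases below, 15 before and 15 from the start, are shown for 3 paralogs beside their partners, for the paralog RPL7L1, and for RPLP1, the most abundant member. Capitals mark the pyrimidine run that begins at the annotated start.
RPLP1: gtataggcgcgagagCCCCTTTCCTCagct
RPL22: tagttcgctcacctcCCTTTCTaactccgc
RPL22L1: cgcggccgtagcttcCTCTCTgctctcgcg
RPS27: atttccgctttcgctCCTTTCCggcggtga
RPS27L: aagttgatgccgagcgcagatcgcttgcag
RPL26: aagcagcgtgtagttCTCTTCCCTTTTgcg
RPL26L1: agtcttccaggggtcggcgaacgaaacgcg
RPL7L1: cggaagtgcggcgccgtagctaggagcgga
These lie at chr15:69452803-69452832 on the plus strand for RPLP1, chr1:6199581-6199610 on the minus strand for RPL22 and chr3:170870181-170870210 on the minus strand for RPL22L1. The RPS27 window is chr1:153990747-153990776 (plus strand) and that of RPS27L is chr15:63157463-63157492 (minus strand). The RPL26 window is chr17:8383179-8383208 (minus strand), that of RPL26L1 is chr5:172958714-172958743 (plus strand) and that of RPL7L1 is chr6:42879601-42879630 (plus strand). RPL22L1 was the 1 paralog among these 5 entries (the fifth is RPL10L) whose window starts with the pyrimidine run, while RPS27L, RPL26L1 and RPL7L1 start with a G. Of the motifs searched on both strands in the 250 bases before the start, CCGGAA occurred in 35 of the 67 genes (52.2%, against 17.2% of all genes in the table). The TATA box TATAAA occurred in 7 (10.4%, against 13.05%), among them RPL22L1, and the E-box CACGTG in 4 (5.97%, against 7.73%).

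After demultiplexing, 15054 cells with 1 hashtag, at least 1000 genes and at most 10% mitochondrial counts were kept, from 1053 to 1664 per culture. The 2 libraries shared 91 cell barcodes. Summed counts of unique molecular identifiers (UMIs), each counting 1 captured mRNA molecule, came to between 30433501 and 51783420 per culture, and each tested ribosomal protein gene had at least 517 UMIs in every culture. Macrophage and microglia markers summed to between 6934 and 7962 CPM, the UMIs of a gene scaled to a fixed total per culture, over the 12 cultures, with none of the 10 genes at 0. Erythroid markers stayed at or below 0.0408 CPM, with 4 of the 6 genes at 0 in all cells. Monocyte markers summed to 343 to 422 CPM in Ctrl and 1183 to 1257 CPM in LPS, and endothelial markers to 78.1 to 99.1 CPM and 34.6 to 47.8 CPM. Dendritic cell markers summed to 30.0 to 39.1 CPM in Ctrl and 14.7 to 22.4 CPM in LPS. Fibroblast and stromal markers summed to 2.99 to 29.2 CPM in Ctrl and at most 6.03 CPM elsewhere. Under the TMM scaling explained below, 4 of 6 monocyte markers rose in LPS and 1 fell, and 2 of 2 tested endothelial markers fell. Of the 10 macrophage and microglia markers 4 rose and 5 fell. Under total UMIs 3 monocyte markers rose and 1 fell, and 2 macrophage and microglia markers rose and 5 fell. The part of these cell types in the LPS results below was not tested. The check on the LPS treatment held, as 8 of 8 LPS response genes rose, and their sum went from between 767 and 809.8 CPM in Ctrl to between 9855 and 11302 CPM in LPS.

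Ribosomal protein genes supplied between 15.6% and 17.8% of all UMIs in the 12 cultures, and the mean share was highest in the Sema cultures and lowest in the LPS cultures. In Ctrl the share was 17.1%, 16.4% and 16.5% of UMIs in cultures 1, 2 and 3, with a mean of 16.6% ± 0.366 (SD, n = 3). In Sema it was 17.8%, 17.2% and 17.6% (17.5% ± 0.343), above all 3 Ctrl cultures. In LPS it was 16.2%, 15.6% and 15.7% (15.8% ± 0.270), below all 3 Ctrl cultures. The SemaLPS cultures, at 16.7%, 15.8% and 16.2% (16.3% ± 0.451), overlapped with the LPS cultures but stood above the LPS culture of the same number in 3 of 3 pairs. Culture 1 had the highest share in every condition. These shares are descriptions, since 3 cultures against 3 cannot give a two-sided exact permutation p below 0.10.

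**Figure D1:**
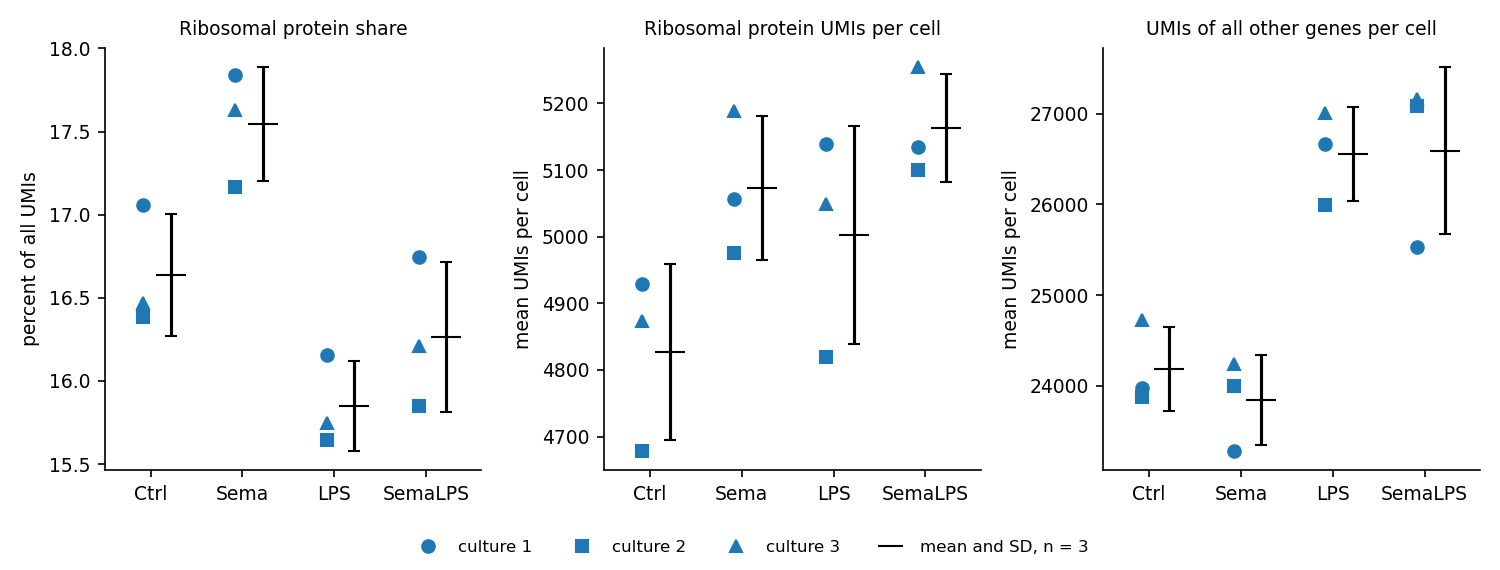
Ribosomal protein share of all UMIs (percent, left), mean ribosomal protein UMIs per cell (middle) and mean UMIs of all other genes per cell (right) for each of the 12 cultures, with the mean and SD of each condition beside the points. The vertical axes do not start at 0. The share is lowest in LPS while the ribosomal protein UMIs per cell are not, and UMIs of other genes stand at 25531 or more per cell in LPS and SemaLPS and at 24723 or fewer in Ctrl and Sema.

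The lower share in LPS was not accompanied by fewer ribosomal protein molecules captured per cell. Mean ribosomal protein UMIs per cell were 4930, 4679 and 4874 in Ctrl and 5139, 4820 and 5049 in LPS, which was higher in 3 of 3 pairs and 3.63% higher on average, with overlapping groups. The UMIs of all other genes per cell were 9.79% higher in LPS, with groups that did not overlap. In Sema the ribosomal protein UMIs per cell were 5056, 4975 and 5189, 5.09% above Ctrl without overlap, while the UMIs of other genes overlapped (1.43% lower). Per cell, 64 of the 82 tested genes had more UMIs in LPS than in Ctrl in all 3 pairs, against 31.0% of all tested genes.

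The balance of the subunits was nearly the same in all conditions. The small subunit genes supplied 42.6% to 42.9% of the ribosomal protein UMIs in Ctrl, Sema and LPS, and the LPS mean differed from the Ctrl mean by -0.0018 percentage points. In SemaLPS the small subunit share was 43.1%, 42.9% and 42.9%, higher than in LPS in 3 of 3 pairs and without overlap, by 0.229 percentage points.

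Levels within the family spanned from 22.5 to 6395 CPM. These are 3' counts, 1 per molecule, so they were not divided by transcript length, and capture can still differ between genes. CPM values from here on use trimmed mean of M values (TMM) scaling, which sets each culture by the bulk of its genes, unless total UMIs are named. RPLP1, an acidic protein of the stalk that binds translation factors, was highest, with a mean of 6395 CPM over the 12 cultures. It was followed by RPL39, a small protein at the exit tunnel (4539 CPM), RPS28 (4397 CPM), RPL41 (4395 CPM) and RPL10, which carries part of the tRNA binding surface (4212 CPM). Between RPL39, RPS28 and RPL41 the order changed between cultures. RPS4X, next in the mean over all cultures (4198 CPM), stood above RPL10 in the LPS and SemaLPS means. So did RPS19, at 4281 CPM in LPS and 4436 CPM in SemaLPS, against 4264 and 4338 CPM for RPL10. At the low end stood the paralogs RPL39L (22.5 CPM), RPL7L1 (73.8 CPM), RPL26L1 (77.3 CPM), RPL22L1 (200 CPM) and RPS27L (289 CPM), all below the lowest core gene, RPS10 (332 CPM), in the mean over all cultures. In Ctrl the mean of RPS27L (313 CPM) stood above that of RPS10 (307 CPM). In all, 67 genes had a mean above 1000 CPM.

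In LPS against Ctrl the paralogs differed from each other, and 4 of the 5 tested ones changed in a direction that did not depend on the scaling. RPL22L1 and RPL7L1 rose and RPS27L and RPL39L fell, both under TMM scaling and under scaling by total UMIs. RPL26L1 gave no stable direction.

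RPL22L1 (chr3:170864875-170870483, GENCODE v29, GRCh38), the copy of the RNA-binding large subunit protein RPL22, was at 164, 143 and 153 CPM in Ctrl. In LPS it was at 274, 237 and 252.96 CPM. The LPS values lay above all Ctrl values, and the log2 fold change was 0.73 (SE 0.07, edgeR's quasi-likelihood test, Benjamini-Hochberg adjusted p = 5.11e-07). Under total UMIs it was 0.52 (adjusted p = 8.02e-06). Its partner RPL22 changed by 0.13 under TMM scaling and by -0.08 under total UMIs. Per 100 UMIs of RPL22 there were thus 13.9 ± 0.773 UMIs of RPL22L1 in Ctrl and 21.0 ± 0.819 in LPS (SD, n = 3), a ratio of 1.52 between the means.

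RPL7L1 (chr6:42879618-42889925), whose yeast relative Rlp7 acts in large subunit assembly rather than in the finished ribosome, stood at 62.3, 61.3 and 61.3 CPM in Ctrl. It reached 91.9, 89.6 and 80.9 CPM in LPS, without overlap. Its log2 fold change was 0.51 (SE 0.05, adjusted p = 1.57e-06 by edgeR), and 0.30 under total UMIs (adjusted p = 0.000697). Per 100 UMIs of RPL7 it went from 7.01 ± 0.143 to 8.82 ± 0.779.

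RPS27L (chr15:63125872-63158021), a copy of RPS27, went the other way. Its level was 329.5, 295 and 314 CPM in Ctrl and 262.3, 241 and 255.1 CPM in LPS, without overlap. The log2 fold change was -0.31 (SE 0.05, adjusted p = 0.000161 by edgeR) and -0.52 under total UMIs (adjusted p = 9.40e-07). RPS27 itself changed by 0.07 (adjusted p = 0.097 by edgeR). Per 100 UMIs of RPS27 the paralog fell from 15.1 ± 0.822 to 11.6 ± 0.223.

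RPL39L (chr3:187120948-187180908), a copy of RPL39 best known from testis, was the least abundant of the tested genes. It measured 30.3, 23.4 and 22.6 CPM in Ctrl and 18.7, 14.996 and 16.5 CPM in LPS, and the groups did not overlap. Its log2 fold change was -0.60 (SE 0.12, adjusted p = 0.000541 by edgeR) and -0.81 under total UMIs (adjusted p = 5.16e-05). Markers of dividing cells moved in the same direction. Cells with at least 10 UMIs of 8 such markers made up 17.9%, 9.15% and 11.9% of cells in Ctrl and 9.40%, 6.04% and 7.61% in LPS, and 2 of the 8 marker genes fell and 0 rose, or 6 fell and 0 rose with the culture number as a block. Their summed level, scaled by total UMIs, was 277 to 556 CPM in Ctrl and 204 to 291 CPM in LPS. Without those cells the RPL39L change was -0.49 and that of RPS27L -0.37, so both remained negative. In these sums, fewer cells of a kind and less RNA per cell cannot be told apart.

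RPL26L1 (chr5:172958729-172969771), a copy of RPL26, was at 79.9, 73.0 and 76.7 CPM in Ctrl and at 83.5, 73.9 and 79.9 CPM in LPS. The groups overlapped, and the log2 fold change of 0.05 (SE 0.05) gave an adjusted p of 0.422 by edgeR. Under total UMIs the value was -0.16 (adjusted p = 0.00957), so its sign depended on the scaling. The RPL36AL gene, a copy of RPL36A outside the naming rule, stayed at 75.7 ± 0.185 UMIs per 100 of RPL36A in LPS, against 74.7 ± 2.28 in Ctrl.

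**Figure D2:**
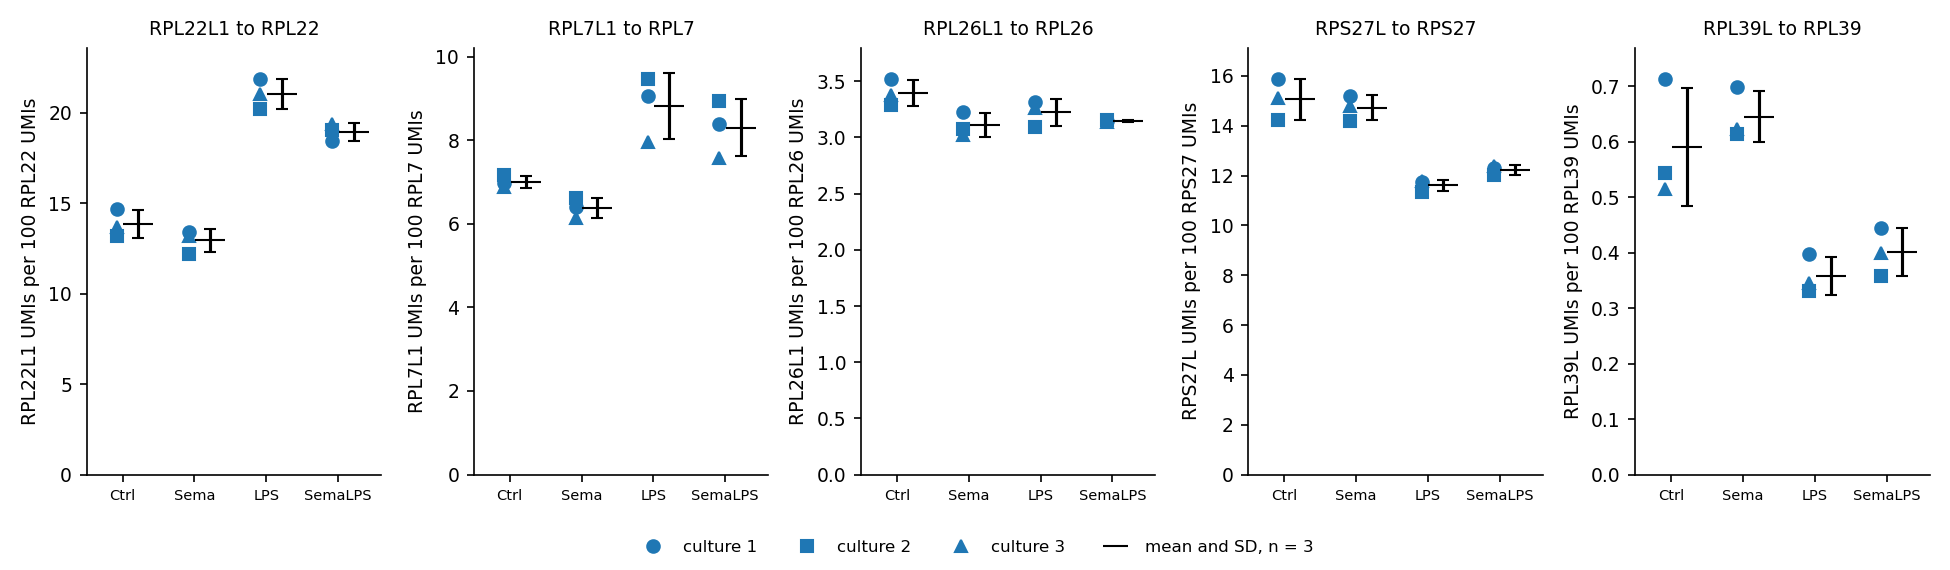
UMIs of each paralog per 100 UMIs of its partner gene in the 12 cultures, by condition, with the mean and SD (n = 3) beside the points and all axes from 0. RPL22L1 and RPL7L1 stand higher, and RPS27L and RPL39L lower, in every LPS and SemaLPS culture than in any Ctrl or Sema culture, and RPL26L1 overlaps between LPS and Ctrl.

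The core genes, the 77 tested members outside the paralogs, shifted together, and the direction of that shift depended on the scaling. Under TMM scaling 70 of the 82 tested members rose in LPS and 2 fell (edgeR, adjusted p below 0.05), where 30.3% of all 15099 tested genes rose and 28.9% fell. Under total UMIs 2 members rose and 40 fell, against 16.4% and 46.8% of all genes. The members' median log2 change was 0.13 under TMM scaling and -0.08 under total UMIs, while the median over all tested genes went from -0.02 to -0.22. On both scales the members' median thus lay 0.15 above that of all genes, and neither scale says by itself whether the core genes rose. The scaling moves every gene by nearly the same amount, so the gap had to be the same on both scales. The TMM factors were 1.05 to 1.09 in Ctrl and Sema and 0.918 to 0.952 in LPS and SemaLPS.

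With the replicate number as a block, 79 members rose and 2 fell under TMM scaling (33.0% of all genes rose). Without the cells carrying dividing cell markers, 44 members rose and 2 fell under TMM scaling (29.8% of all genes rose), and 73 rose and 2 fell with the block (32.2% of all genes rose). DESeq2's Wald test called 66 rises and 2 falls, where 28.0% of all genes rose. Under total UMIs with the block 8 members rose and 57 fell, against 18.7% and 51.3% of all genes. Of the 72 members called without the block, 52 were called again in all 12 fits that each left out 1 culture, and 77 of 81 did so with the block. In the 16 to 64 cells per culture with at most 5% mitochondrial counts, 8 members rose and 1 fell, where 6.36% of all genes rose.

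Within the core, the log2 changes ranged from 0.05 for RPL23 to 0.28 for RPS27A under TMM scaling. RPS27A, which encodes ubiquitin fused to a small subunit protein, stood at 1869, 1774 and 1848 CPM in Ctrl and at 2312, 2140 and 2218 CPM in LPS. Its log2 fold change was 0.28 (SE 0.04, adjusted p = 3.60e-05 by edgeR), without overlap, and 0.07 under total UMIs (adjusted p = 0.0799). RPS20, a protein of the small subunit head, was at 914, 886 and 903 CPM in Ctrl and at 1114, 1049 and 1111 CPM in LPS. This is a log2 fold change of 0.28 (SE 0.03, adjusted p = 8.30e-06 by edgeR), and 0.07 under total UMIs (adjusted p = 0.0799). The LPS values of RPS20 lay above the Ctrl values on both scales.

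RPS26, which contacts the mRNA at the exit of its channel, was at 653, 605 and 627 CPM in Ctrl and at 795, 708 and 751 CPM in LPS, a log2 fold change of 0.26 (SE 0.05, adjusted p = 0.000553 by edgeR). The LPS values of RPS26 stood above all Ctrl values under TMM scaling and overlapped under total UMIs, where the change was 0.05 (adjusted p = 0.402). In all, 12 members had a positive value under total UMIs. RPL22L1 and RPL7L1 passed the test, and the other 10 did not, among them RPS27A, RPS20, RPS26, RPL4, RPL35, RPL21, RPL8 and RPL27. The 10 members with no call under TMM scaling were RPL26L1, RPS27, RPSA, RPS3A, RPL12, RPS3, RPS15A, RPL23, RPL13A and RPL28, with values between 0.05 and 0.09.

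**Figure D3:**
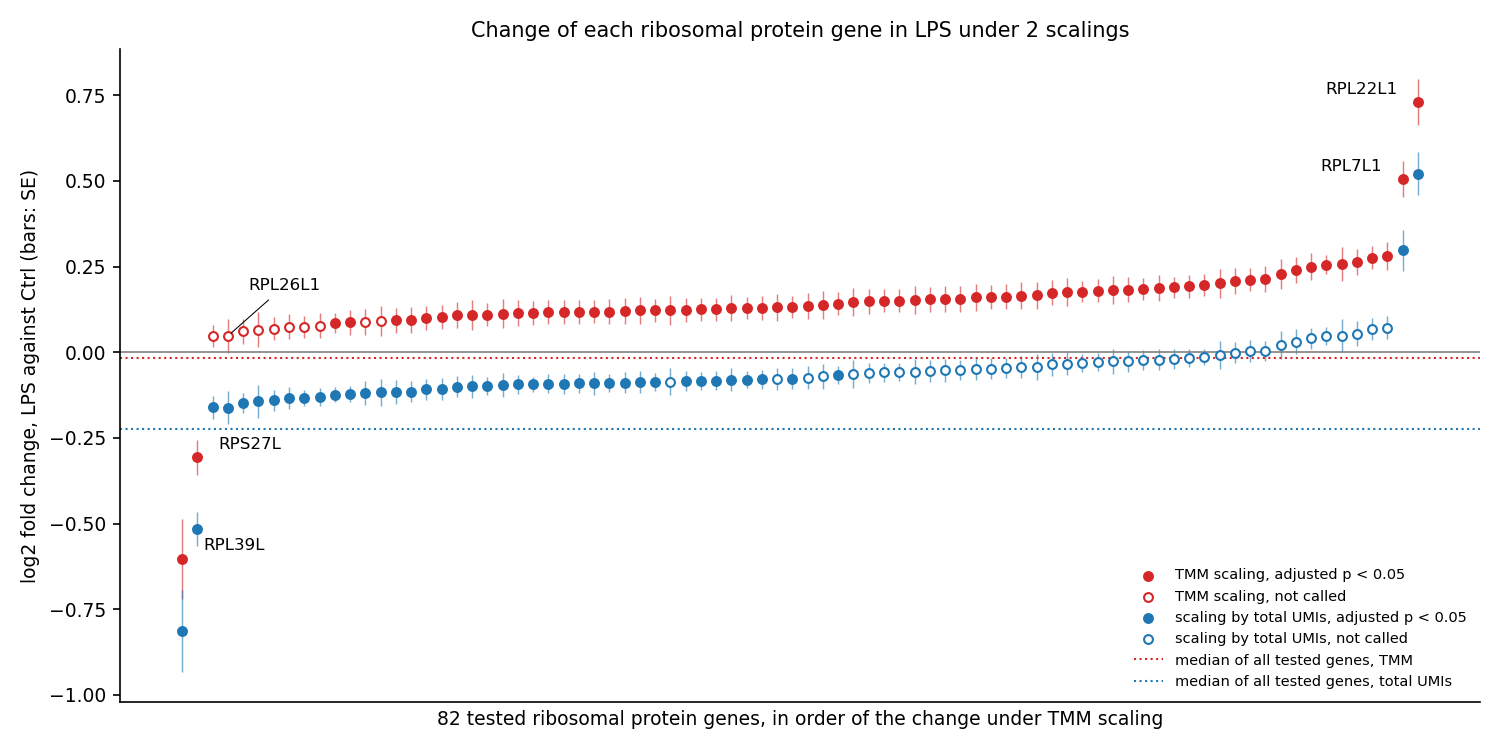
Log2 fold change of LPS against Ctrl for the 82 tested ribosomal protein genes, with the SE from edgeR, under TMM scaling (red) and under total UMIs (blue). Filled points passed the test at an adjusted p below 0.05, and dotted lines mark the median of all 15099 tested genes under each scaling. The scaling moves every gene by nearly the same amount, and RPL22L1 and RPL7L1 stay above 0 and RPS27L and RPL39L below 0 under both.

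By role, the group medians of core genes in LPS lay between 0.11 and 0.16 under TMM scaling. The counts below stand against the 30.3% of all tested genes that rose under TMM scaling and the 46.8% that fell under total UMIs. Of the 4 stalk genes, 3 rose under TMM scaling with a median of 0.15 over the 4, and 0 rose and 1 fell under total UMIs. RPL5 and RPL11, which carry the 5S RNA and also bind MDM2, rose by 0.10 and 0.15 under TMM scaling, and changed by -0.11 and -0.06 under total UMIs, where RPL5 fell and RPL11 was not called. All 8 genes at the rim of the exit tunnel rose, with a median of 0.13, and 6 of them fell under total UMIs. Of the 6 genes at the mRNA channel and decoding site 5 rose, with a median of 0.11, and 4 fell under total UMIs. The 46 core genes of the large subunit had a median of 0.13 and the 31 of the small subunit one of 0.15 under TMM scaling. Members with a pyrimidine run at the annotated start had a median of 0.13 (47 genes) and those with another start 0.14 (19 genes). Both groups include paralogs. In some genes with another start, such as RPL10A and RPL9, a pyrimidine run begins a few bases past the annotated start. These medians thus do not compare mRNAs with and without the tract.

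Among the 18 members mutated in Diamond-Blackfan anaemia, an inherited failure of red cell production, 17 rose under TMM scaling, with a median of 0.16, and 7 fell under total UMIs, against 30.3% and 46.8% of all genes. Among them RPS26 (0.26), RPL35 (0.24) and RPL27 (0.21) rose under TMM scaling and were not called under total UMIs. FAU, a ribosomal protein gene with another name, rose by 0.15 under TMM scaling and changed by -0.06 under total UMIs.

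With semagacestat present, the same 4 paralogs changed with LPS in the same directions. In SemaLPS against Sema, RPL22L1 changed by 0.65 (SE 0.07, adjusted p = 1.45e-06 by edgeR), from 159, 138 and 160 CPM in Sema to 239.7, 233 and 245 CPM in SemaLPS. RPL7L1 changed by 0.54 (adjusted p = 7.34e-07), RPS27L by -0.21 (adjusted p = 0.00253) and RPL39L by -0.65 (adjusted p = 0.000203), each without overlap. Under total UMIs the 4 values were 0.44, 0.33, -0.42 and -0.86, and all passed the test. RPL26L1 again turned with the scaling, at 0.09 under TMM scaling (adjusted p = 0.125 by edgeR, and 0.0121 with the block) and -0.12 under total UMIs (adjusted p = 0.0381).

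In that comparison 53 members rose and 2 fell under TMM scaling, where 30.9% of all genes rose and 30.3% fell. Under total UMIs 2 rose and 56 fell, against 17.1% and 48.0% of all genes. The members' median was 0.10 under TMM scaling and -0.11 under total UMIs. With the block 72 rose and 2 fell (33.8% of all genes rose). Without dividing-marker cells 29 rose and 2 fell under TMM scaling (30.5% of all genes rose), and 61 rose and 2 fell with the block (33.0% of all genes rose). Of the 55 members called without the block, 28 were called again in all 12 fits that left out a culture. The largest core values were 0.28 for RPS26, 0.26 for RPS20 and 0.25 for RPS27A.

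In Sema against Ctrl the core genes showed small positive differences in each pair of cultures, and 48 of the 77 passed the test once the culture number entered the fit. Without the block 0 members were called in Sema against Ctrl by edgeR, where 0.0132% of all genes were called. An unadjusted p under 0.05 was found for 33 of the 82. Counts of this kind, here and below, are not set against all genes. DESeq2's Wald test called 0 as well. With the block 48 members rose and 0 fell, where 1.84% of all genes rose. Under total UMIs with the block 66 rose and 0 fell (1.93% of all genes). The members' median was 0.08 in each of these fits.

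The culture numbers bear on this result. Cultures of the same number deviated from their condition means together, so number 1 of Sema is best set against number 1 of Ctrl. All 77 core genes, and RPL39L, were higher in Sema than in Ctrl in 3 of 3 pairs, 78 of 82 tested members, against 19.7% of all tested genes. Members shifted together within a pair, so such counts, here and elsewhere, rest on 3 pairs and not on separate genes. The median of the log2 differences was 0.06 in pair 1, 0.06 in pair 2 and 0.11 in pair 3. The 4 exceptions were paralogs: RPL7L1 and RPL26L1 were lower in 3 of 3 pairs, RPL22L1 in 2 and RPS27L in 1, and none of the 4 passed the test.

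The largest changes called with the block were those of RPL5 and RPL7A, both large subunit proteins. RPL5 was at 1688, 1626 and 1662 CPM in Ctrl and at 1780.3, 1729 and 1834 CPM in Sema. It had a log2 fold change of 0.10 (SE 0.02, adjusted p = 0.0155 by edgeR with the block), and 0.10 (SE 0.03, adjusted p = 0.625) without it. RPL7A was at 2363, 2282 and 2368 CPM in Ctrl and at 2517, 2408 and 2606 CPM in Sema, with the same change (adjusted p = 0.00817 with the block and 0.670 without). The Sema values of both genes lay above all Ctrl values. RPS14 (0.10), RPL34 (0.10), RPL14 (0.09) and RPS7 (0.09) followed, with adjusted p-values between 0.0116 and 0.0231 by edgeR with the block.

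**Figure D4:**
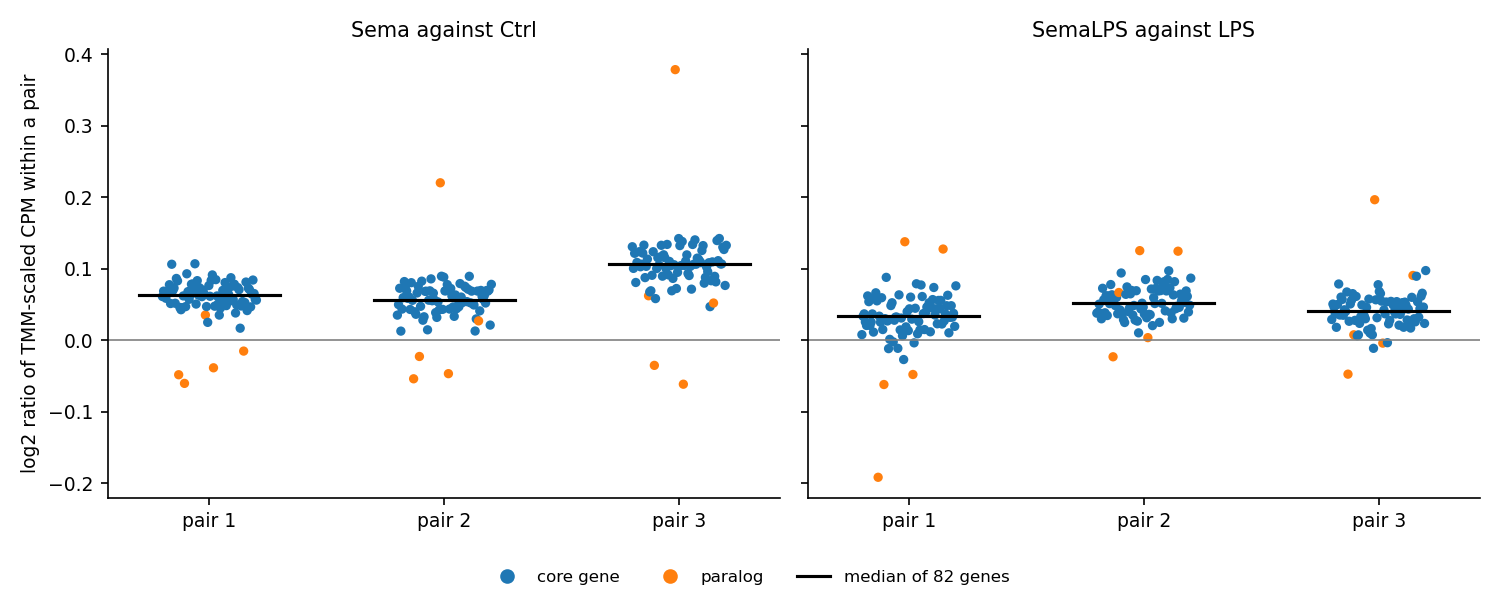
Log2 ratio of TMM-scaled CPM between cultures of the same number for the 82 tested ribosomal protein genes, Sema against Ctrl (left) and SemaLPS against LPS (right). Blue points are core genes, orange points are paralogs, and the bar is the median of the 82 genes. All core genes lie above 0 in the 3 pairs on the left, with medians of 0.06, 0.06 and 0.11, and on the right the medians stand at 0.03, 0.05 and 0.04.

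The number of members called with the block rested on the third pair. Without culture 3 of Ctrl or culture 3 of Sema it was 2, without culture 2 of Sema it was 14, without culture 2 of SemaLPS 28 and without culture 1 of Ctrl 31, and the other cultures left 39 to 59. RPL7A was the 1 member called in all 12 of these fits. Culture 3 of Sema had hashtag thresholds of 309 and 205 counts in libraries 1 and 2, against 10 to 116 for the other cultures. It also had the most cells (1664), and the part of its hashtag assignment in the count was not tested. With DESeq2's size factors in the blocked fit 30 members were called. This count and those with a culture left out are not set against all genes. Without the cells carrying dividing cell markers the blocked fit called 50 rises and 0 falls, where 1.04% of all genes rose. Those cells made up 17.8%, 14.2% and 15.7% of Sema cells, overlapping with Ctrl. The summed markers, scaled by total UMIs, stood at 386 to 518 CPM.

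Under LPS the members' median difference with semagacestat was 0.04 on the log2 scale. Without the block 0 members were called in SemaLPS against LPS by edgeR, where 0.0132% of all genes were called, with 2 members at an unadjusted p under 0.05, and DESeq2's Wald test called 0. With the block 3 rose and 0 fell, where 1.28% of all genes rose. These were RPS27L, RPSA and RPL27A. Higher values in 3 of 3 pairs were found for 73 members, against 18.8% of all genes, with medians of 0.03, 0.05 and 0.04 in pairs 1, 2 and 3. Per cell, 42 of the 82 tested members had more UMIs in SemaLPS than in LPS in all 3 pairs, against 18.1% of all tested genes. Mean ribosomal protein UMIs per cell were higher in 2 of 3 pairs, with overlapping groups.

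RPS27L went from 262.3, 241 and 255.1 CPM in LPS to 286.5, 262.5 and 272 CPM in SemaLPS, without overlap. The log2 fold change was 0.11 (SE 0.02, adjusted p = 0.0169 by edgeR with the block, and 0.893 without it). RPSA, a small subunit protein also known as the laminin receptor precursor, changed by 0.09 (adjusted p = 0.0462 with the block) and RPL27A by 0.08 (adjusted p = 0.0484 with the block), both with overlapping groups. None of the 3 was called in all 12 fits that left out a culture, and the count ranged from 0 (without LPS culture 1, SemaLPS culture 1 or SemaLPS culture 2) to 4. RPL22L1 was lower in SemaLPS than in LPS in 3 of 3 pairs under TMM scaling, at -0.09 (adjusted p = 0.258 with the block).

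The difference between the 2 semagacestat effects, or equally between the 2 LPS effects, was tested as an interaction. No member was called by edgeR without the block (0 members at an unadjusted p under 0.05, and 0.0% of all genes called), by edgeR with the block (10 members at an unadjusted p under 0.05) or by DESeq2. The smallest adjusted p with the block was 0.393, for RPL39. The members' median interaction was -0.03, with 5 of 82 values above 0, and these comparisons share cultures.

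Other genes of the ribosome pathway were counted in the same way in LPS, where 30.3% of all tested genes rose and 28.9% fell under TMM scaling, and 16.4% rose and 46.8% fell under total UMIs. Of 42 ribosome assembly genes 39 rose and 0 fell under TMM scaling, with a median of 0.51, and 32 rose and 1 fell under total UMIs. Among them the RNA helicase DDX21 changed by 1.17 and BOP1, a large subunit assembly factor, by 1.05 under TMM scaling. Of 17 initiation factors 15 rose and 1 fell under TMM scaling, and 11 rose and 2 fell under total UMIs. Among the 16 of them with a window, 2 had the pyrimidine start. EIF5, which takes part in start codon selection, changed by 0.83 under TMM scaling.

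A list of 15 genes, mostly translation factors, known for pyrimidine-start mRNAs had a median of 0.05 under TMM scaling. A window was at hand for 9 of them, and 8 of the 9 had the start. Of these 15 genes 5 rose and 3 fell, and 1 rose and 12 fell under total UMIs. In Sema against Ctrl with the block 6 of the 15 rose and 0 fell, with a median of 0.07. Of the 78 mitochondrial ribosomal protein genes 43 rose and 9 fell in LPS under TMM scaling, 17 rose and 27 fell under total UMIs, and 3 rose in Sema with the block.

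The genes of mTORC1 and of the control of pyrimidine-start mRNAs went in both directions in LPS, with 9 of 22 rising and 4 falling under TMM scaling, and 6 rising and 10 falling under total UMIs. RRAGD, a GTPase that recruits mTORC1 to the lysosome (-0.67), and LAMTOR1 (-0.36) and LAMTOR4 (-0.34), subunits of its lysosomal anchor, fell under both scalings. Among 11 genes of the MYC network 3 rose and 2 fell under TMM scaling, and 2 rose and 6 fell under total UMIs. MYC, a transcription factor known to drive ribosomal protein genes, changed by 1.35 under TMM scaling. Of 16 tested RNA polymerase I genes 13 rose and 1 fell under TMM scaling, and 4 rose and 3 fell under total UMIs. Of 12 chaperones of ribosomal proteins 8 rose and 1 fell under TMM scaling, and 4 rose and 4 fell under total UMIs. Among 12 host genes of small nucleolar RNAs 5 rose and 2 fell under TMM scaling, and 2 rose and 8 fell under total UMIs. GAS5, known for a pyrimidine-start transcript, fell by 0.26 under TMM scaling.

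Within cultures, the ribosomal protein share of a cell's UMIs went with its mitochondrial counts. Between cells with over 5% to 10% and cells with over 10% to 20% mitochondrial counts the median share was lower in 12 of 12 cultures, with differences from -2.98 to -2.08 percentage points. In cells with at most 5% the median was above that of the cells with over 5% to 10% in 10 of 12 cultures, and below it in Ctrl cultures 2 and 3. The cells with over 10% were outside the main cell filter and numbered 226 to 778 per culture. Median mitochondrial counts were 8.24% to 8.40% in Ctrl cultures and 7.79% to 8.04% in LPS cultures, and their part in the differences between conditions was not tested. With cells up to 20% admitted, the mean share was 16.0% in Ctrl, 16.8% in Sema, 15.4% in LPS and 15.8% in SemaLPS, in the same order as before. With cells up to 5% only, it was 15.5%, 18.5%, 17.8% and 17.0%, so that LPS stood above Ctrl in these 396 cells.

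**Figure D5:**
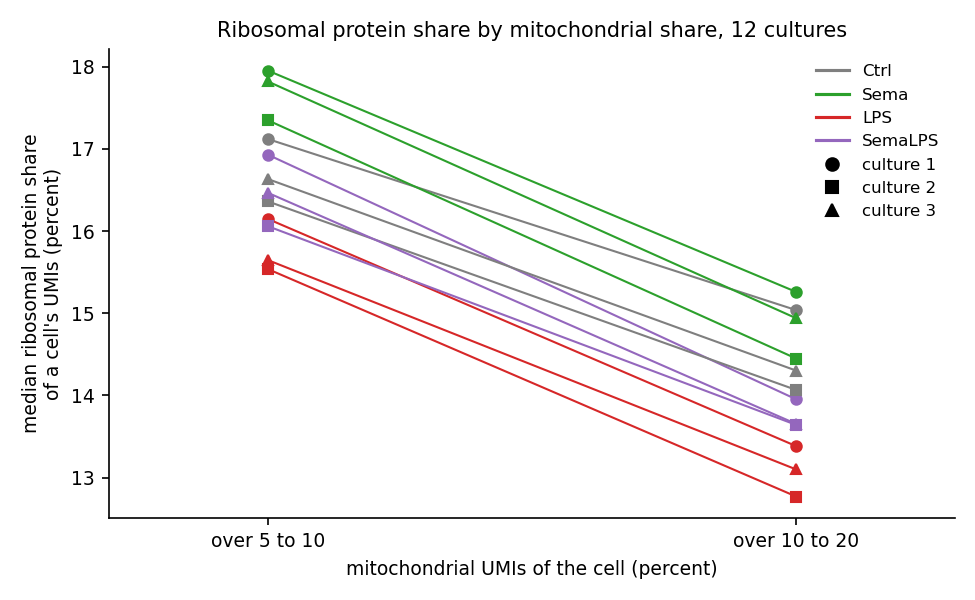
Median ribosomal protein share of a cell's UMIs (percent) in cells with over 5% to 10% and over 10% to 20% mitochondrial counts, with a line for each of the 12 cultures coloured by condition. All 12 lines go down, by -2.98 to -2.08 percentage points, and in both bands the 3 LPS cultures have the lowest median of the 4 cultures of their number.

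Cells carrying dividing cell markers held 1.18 to 1.34 times the ribosomal protein UMIs of the other cells in 12 of 12 cultures. Their share of UMIs was higher in 5 of the 12, with differences from -0.977 to 1.31 percentage points. Across the cells of a culture, the rank correlation of the share with total UMIs lay between -0.22 and 0.01 and with the mitochondrial percentage between -0.28 and -0.11, values that share the cell's total as a denominator.

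Counting sets a limit for some members. GENCODE v29 lists 1144 pseudogenes named after 77 of the 84 genes, and reads from near-identical copies can be split or dropped by the authors' counting, so the level of a single core gene is uncertain. RPL22L1, RPS27L, RPL39L and RPL26L1 have 0 pseudogenes of their name, and RPL7L1 has 12. Of these 77 members, 7 also overlap another gene on the same strand, among them RPS10, RPL22, RPL27A and RPS13.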

How the data were processed

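Cells of 12 cultures were sequenced in 2 libraries by 10x Genomics 3' chemistry with hashtag antibodies. The deposited tables hold whole-number UMI counts per gene or hashtag and cell barcode, written by Cell Ranger 6.0.1 per the file headers. The submitters' processing notes name Cell Ranger 3.0.2, Seurat 4.1.1 and the build hg38 (annotation release not given in the sources used here). Members and gene lists were chosen with earlier results of these data known.

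Hashtag counts were centred log-ratio transformed and clustered (k-means, 13 clusters), and the threshold of a hashtag was the 99th percentile of a negative binomial model of its counts in the cluster where it was lowest. Of 28943 barcodes, 21945 had 1 hashtag, 6511 (22.5%) had more than 1 and were left out as doublets, and 487 had none. Doublets within a culture were not removed. A minimum of 1000 genes and a maximum of 10% mitochondrial counts left 15054 cells, which were kept and summed per culture over both libraries. The sums were tested in edgeR 4.0.16 (R 4.3.3), with the filterByExpr filter, TMM factors, all 12 cultures in 1 quasi-likelihood fit, and Benjamini-Hochberg adjustment over 15099 genes. DESeq2 1.42.0 was an alternative. Because all cultures are wells of 1 line, p-values measure the spread between wells. Cultures share numbers 1 to 3 across conditions. In the fit without the block that spread includes differences between the numbers, and the fit with the number as a block takes these out. Over 2606 genes above 50 CPM, deviations from the condition means correlated at 0.52 to 0.82 between cultures of the same number and at -0.62 to 0.17 otherwise. The 3 deviations of a gene in a condition sum to 0, so the lower values between different numbers are partly built in. The number was taken to pair the cultures, and the fit with it as a block is given beside the main one.

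Members with full values were the 6 largest called rises and falls per comparison at 20 CPM or more, the 5 highest and 5 lowest levels, and every tested paralog. RPL4, RPL23, RPLP0 and other genes outside this rule are given by counts or single values. From each other list at most the 3 genes with the smallest adjusted p in LPS against Ctrl were named. Alternatives were the scaling, the low-count filter, the test, the cells admitted, each library alone, and each culture left out. Fits with the block combined with another choice, and without dividing-marker cells, were added after seeing the data. Some results are not reported here.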

Additional observations from a re-analysis of the deposited data

How the results depend on the processing

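The scaling decided the direction of the core genes' change with LPS. Under total UMIs 42 members were called in LPS against Ctrl, where 16.4% of all genes rose and 46.8% fell. In SemaLPS against Sema 58 were called, where 17.1% of all genes rose and 48.0% fell. With the block the counts were 65 (18.7% of all genes rose and 51.3% fell in LPS against Ctrl) and 74. Most of these calls were falls. With the replicate number as a block 48 members were called in Sema against Ctrl and 3 in SemaLPS against LPS, against 0 each without it. All of these were rises, where 1.84% and 1.28% of all genes rose. In the blocked fit of Sema against Ctrl, DESeq2's size factors gave 30. In that of SemaLPS against LPS, total UMIs gave 9, scaling without the members 1 and leaving out dividing-marker cells 5. Without those cells and without the block, 46 members were called in LPS against Ctrl and 31 in SemaLPS against Sema. There 29.8% and 30.5% of all genes rose. Cells with at most 5% mitochondrial counts gave 9 and 2 in these comparisons, where 6.36% of all genes rose in LPS against Ctrl. The main fit of SemaLPS against Sema called 55 members, where 30.9% of all genes rose and 30.3% fell. In the same comparison, leaving out the cultures numbered 1 gave 30 and library 1 alone 35. Fewer cells or cultures enter these fits. Counts in this section without a share over all genes beside them describe the fits and are not set against all genes. The causes of the other differences were not tested.

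With each culture left out in turn, the members called ranged from 52 to 78 in LPS against Ctrl and from 28 to 62 in SemaLPS against Sema, and with the block from 78 to 81 and from 67 to 78. With the block they ranged from 2 to 59 in Sema against Ctrl and from 0 to 4 in SemaLPS against LPS. The mean member share was 15.5%, 18.5%, 17.8% and 17.0% of UMIs in Ctrl, Sema, LPS and SemaLPS with cells up to 5% mitochondrial counts, and 16.0%, 16.8%, 15.4% and 15.8% up to 20%. Of 243 alternative values for the 9 members given in full in LPS against Ctrl, 230 kept direction and call and 9 lost the call in the same direction. The other 4 were those of RPL26L1, which was not called in the main fit and turned negative under total UMIs (-0.16), in library 1 alone (-0.02), in cells with at most 5% mitochondrial counts (-0.22) and without dividing-marker cells (-0.01). Blocked fits with another choice, and those without dividing-marker cells, were chosen after seeing the data.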
